A study of Mus musculus with 6 samples.

Results

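Deep-layer and subcerebral neuron identity factors are described here by 10 genes chosen by symbol: Fezf2, Bcl11b, Etv1, Crym, Ldb2, Tbr1, Sox5, Tle4, Foxp2 and Zfpm2. All 10 were found among the 21937 gene symbols of the authors' comparison. In the study, progenitors of the mouse embryonic cortex received by in utero electroporation, at embryonic day 14.5, a plasmid with an shRNA against Nat14 (shNat14, 3 libraries) or a non-targeting control shRNA (NTC, 3 libraries). Cortices were dissected at embryonic day 18.5, and live GFP-positive cells were sorted and sequenced as bulk RNA. Both groups share the electroporation, the dissociation and the GFP sort. The labels give neither the sequence of the shRNA nor the promoter that drives it, and they name no strain and no number of embryos or litters per library. The p-values therefore cover only how far these libraries scatter, and that scatter may be technical.

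Neurons of the deep cortical layers send their axons out of the cortex. Layer V subcerebral neurons reach the brainstem and spinal cord and depend on the zinc finger factors Fezf2 and Bcl11b (Ctip2), whereas layer VI corticothalamic neurons reach the thalamus and depend on Tbr1 and Sox5. These programmes restrain each other, with Tbr1 and Sox5 lowering Fezf2 in layer VI. Progenitors electroporated at about this age go on to make mainly upper-layer neurons.

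The deposited values are 1 log2 fold change (shNat14 over NTC), 1 mean level (log2 CPM), 1 p-value and 1 adjusted p-value per gene. CPM are reads scaled to library size, and how that size was set is not given. There are no values per library, so neither an SD nor the depth of a library can be given. The direction of the fold change is not written in the table and was read from Nat14, the target, at -3.31 per the authors' deposited table (adjusted p = 1.2e-08). Its sign is thus no separate check of the labels. Of 9 pan-neuronal markers measured, 8 lay at or above the median level of all genes, with Neurod6, a factor of cortical excitatory neurons, at a mean log2 CPM of 11.30 and the tubulin Tubb3 at 9.83 per the authors' deposited table. The exception was Slc17a7, a vesicular glutamate transporter of excitatory neurons, at a mean log2 CPM of -1.55 per the authors' deposited table. An approximate standard error was obtained for each gene as the fold change divided by the normal deviate that its p-value corresponds to, and the 95% intervals below rest on it.

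None of the 10 genes was called at an adjusted p under 0.05 per the authors' deposited table, where 34 genes were called which is 0.155% of all genes. The smallest adjusted p among the 10 was 0.692, for Etv1. At an unadjusted p under 0.05 there were 2 of the 10, Etv1 and Crym, both negative per the authors' deposited table. Over all genes 5.04% passed that p, and 2.25% passed it with a negative fold change. That last share was 2.12% of the 10969 genes whose level was the median or higher, to which all 10 belong. Fold changes were negative for 8 of the 10, with a median of -0.19 and a range from -1.50 to 0.71, whereas 48.7% of the 8017 genes within the same range of levels were negative, with a median of 0.01. The 10 were chosen with results of these data known, so this count is a description.

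**Figure D1:**
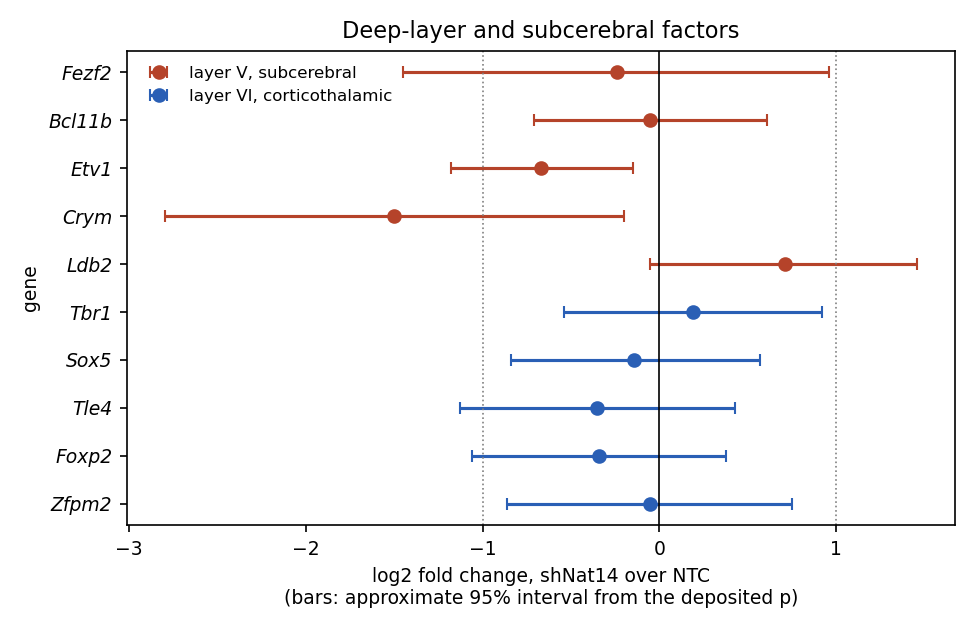
Log2 fold change of each of the 10 genes (x axis, shNat14 over NTC) by gene (y axis). Points are the deposited values, bars are approximate 95% intervals, and dotted lines mark -1 and 1. The intervals of Etv1 and Crym lie below 0, and those of the other 8 genes include it.

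Fezf2, the selector of the subcerebral fate, was 1 of the 3 lowest of the 10 in level per length. Its mean was 5.36 CPM and its log2 fold change was -0.24 per the authors' deposited table (p = 0.691). The interval ran from -1.45 to 0.96, that is from 36.6% to 195% of the NTC level, so a change of 2-fold downward was not resolved at this precision. Bcl11b, which acts downstream of Fezf2 in the growth of subcerebral axons, stood at 70.3 CPM and was measured more closely. Its log2 fold change was -0.05 per the authors' deposited table (p = 0.89), with an interval from -0.71 to 0.61. That interval leaves out a 2-fold change in either direction, while it still allows 61.2% to 153% of the control level. Bcl11b is also expressed by striatal neurons and interneurons.

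Etv1 (Er81), an ETS-family factor of layer V, had the smallest p of the 10. Its log2 fold change was -0.67 per the authors' deposited table (p = 0.012, adjusted p = 0.692), which is 63% of the NTC level with an interval from 44% to 90.3%. Among the 1632 genes within 0.5 log2 CPM of its level of 86.2 CPM, 4.04% had a fold change of at least this size in either direction. Beside it, the interneuron markers, which mark cells that can also express Etv1, had a median log2 fold change of -0.60, with 7 of 10 negative and none called. Dlx5 and Dlx1, factors that specify interneurons, stood at -0.76 (p = 0.0134) and -0.79 (p = 0.0137) per the authors' deposited table. Of the 10 interneuron markers, 7 lay at or above the median level of all genes. How far the GFP sort removed interneurons without the plasmid was not tested, nor was their part in the value of Etv1. In bulk samples fewer cells of a type and less RNA per cell cannot be told apart. The deposited level of a marker is 1 mean per gene, and no level is given for each group.

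The RefSeq promoters (assembly GRCm38.p6) of the pair of Etv1 starts are shown because this gene has the smallest p, and that of Tbr1 because it is the best expressed of the 10 per length. Each is the 250 bases upstream of the start, read 5′ to 3′ on the strand of the gene, the plus strand for both genes. Capitals mark matches, on either strand, to the motifs searched, which were a TATA box (letters TATAAA), a SOX core (letters ACAAAG), a forkhead core (letters TAAACA), an ETS core (letters CCGGAAG) and a T-box core (letters AGGTGTGA).
Etv1, upstream start, chr12:38779832-38780081: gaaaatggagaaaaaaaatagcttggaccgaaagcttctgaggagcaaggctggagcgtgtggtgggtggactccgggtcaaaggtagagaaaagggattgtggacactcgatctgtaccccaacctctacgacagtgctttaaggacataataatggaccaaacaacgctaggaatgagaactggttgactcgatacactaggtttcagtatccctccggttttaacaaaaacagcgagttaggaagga
Etv1, downstream start, chr12:38783461-38783710: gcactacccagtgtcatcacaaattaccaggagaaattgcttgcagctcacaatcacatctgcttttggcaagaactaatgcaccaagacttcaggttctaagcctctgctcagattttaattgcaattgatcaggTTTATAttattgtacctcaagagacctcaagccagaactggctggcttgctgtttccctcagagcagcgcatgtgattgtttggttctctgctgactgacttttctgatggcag
Tbr1, chr2:61804203-61804452: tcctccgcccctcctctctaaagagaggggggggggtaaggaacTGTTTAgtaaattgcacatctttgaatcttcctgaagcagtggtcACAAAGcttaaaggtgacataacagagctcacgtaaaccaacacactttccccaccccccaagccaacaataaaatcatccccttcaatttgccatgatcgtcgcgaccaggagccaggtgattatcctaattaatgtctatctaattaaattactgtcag
The downstream Etv1 promoter holds the TATA letters, as do 12.4% of 32851 promoters of this length. The Tbr1 promoter holds the SOX letters, found in 16.5% of promoters, and the forkhead letters, found in 12% of them, which are the letters of the families of Sox5 and Foxp2. No match to the ETS or T-box letters was found in the 8 promoters listed for 6 of the 10 genes. These matches describe the letters and show no binding.

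Crym, a thyroid hormone-binding protein that marks corticospinal neurons, had the largest fold change of the 10. It stood at -1.50 per the authors' deposited table (p = 0.0234, adjusted p = 0.844), which is 35.3% of the NTC level. Its level was the lowest of the 10, also per length, with a mean of 4.16 CPM, and the interval ran from 14.4% to 86.9%. Of the 1271 genes of like level, 4.17% had a fold change of at least this size, so the larger value of Crym was no further out among its peers than that of Etv1. Ldb2, a cofactor that bridges LIM-domain factors and is enriched in corticospinal neurons, stood on the other side of 0. Its log2 fold change was 0.71 per the authors' deposited table (p = 0.0682, adjusted p = 1), with an interval from -0.05 to 1.46. Endothelial cells also express Ldb2, and 7 of 8 endothelial markers were positive, with a median of 1.43 and none called. Only 1 of these 8, the tight junction gene Cldn5, reached the median level of all genes, and it stood at 0.18 (p = 0.821) per the authors' deposited table. Emcn and Tek, both endothelial genes, stood at 4.98 (p = 0.0137) and 4.43 (p = 0.0397) per the authors' deposited table, with low mean log2 CPM of -0.21 and 1.20. Whether the sort for GFP removed vessel cells that did not receive the plasmid was not tested, nor was their part in the value of Ldb2. Among these 5 layer V genes the fold changes thus ran from -1.50 to 0.71.

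The 5 layer VI genes lay closer together, from -0.35 to 0.19. Tbr1, the T-box factor that specifies corticothalamic neurons, stood at 0.19 per the authors' deposited table (p = 0.608), with an interval from -0.54 to 0.92. Sox5, an SRY-box factor that times the production of deep-layer neurons, stood at -0.14 per the authors' deposited table (p = 0.705), and its interval ran from -0.84 to 0.57. Zfpm2 (Fog2), a zinc finger cofactor of layer VI, was nearest to 0 together with Bcl11b, at -0.05 per the authors' deposited table (p = 0.895) and with an interval from -0.86 to 0.75. For Tbr1, Sox5 and Zfpm2, as for Bcl11b, the interval excluded a 2-fold change in both directions. Tle4, a Groucho-family corepressor, and Foxp2, a forkhead factor, stood at -0.35 (p = 0.38) and -0.34 (p = 0.359) per the authors' deposited table. Their intervals reached -1.13 and -1.06, so a fall by 2-fold was just within them. The median of the layer VI genes was -0.14 and that of the layer V genes -0.24, and whether these groups differ was not tested, as the table holds no values per library.

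**Figure D2:**
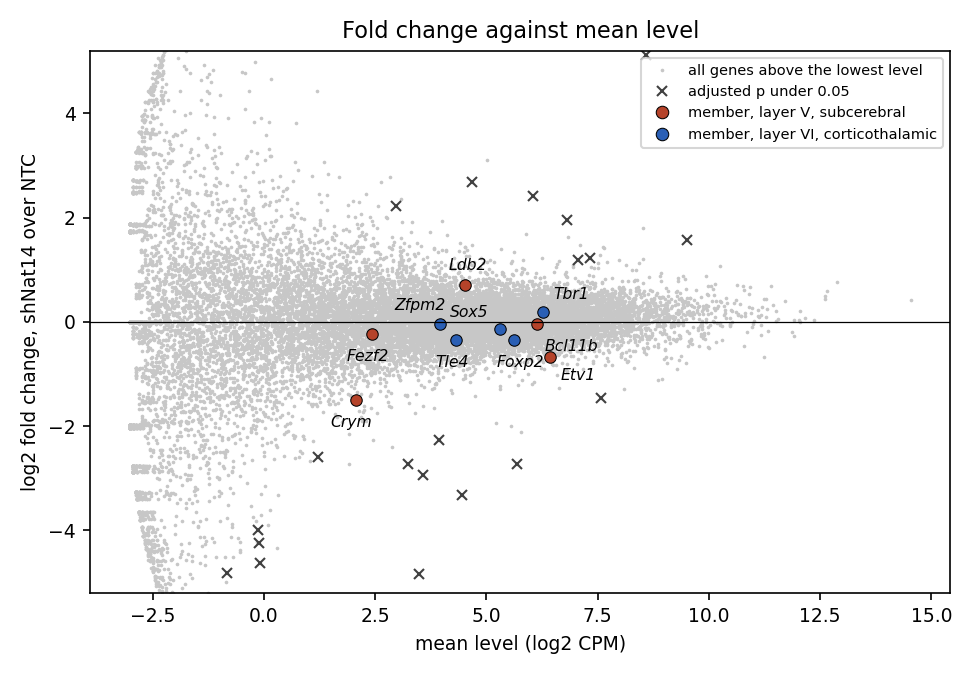
Log2 fold change (y axis, shNat14 over NTC) against mean level (x axis, log2 CPM) for the 17400 genes above the lowest level, with 171 genes beyond the y axis not drawn. Coloured circles are the 10 genes and crosses are genes called at an adjusted p under 0.05. The 10 genes lie inside the cloud, with Crym, Etv1 and Ldb2 towards its edge.

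The precision of the comparison sets what could have been called. The approximate standard errors of the 10 genes ran from 0.26 for Etv1 to 0.66 for Crym, with a median of 0.38. Each was close to the median of genes of like level, which was 0.30 around Etv1 and 0.61 around Crym. Within the range of levels of the 10 genes, 10 of 8017 genes were called per the authors' deposited table. The smallest absolute log2 fold change among those called was 2.22, and their median was 2.73. The largest unadjusted p among all called genes was 7.65e-05. With the approximate standard errors, an absolute log2 fold change of about 1.05 for Etv1, 1.34 for Bcl11b and 2.62 for Crym would have reached that p. For the other 7 genes it lay between 1.42 and 2.43, and the values of all 10 were below it. In all, 4 of the 10 intervals excluded a 2-fold change in both directions, 5 included a 2-fold fall and 1 a 2-fold rise.

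Levels were compared between genes per kb of annotated exon, as mean CPM per kb. Tbr1 was highest at 14.1, followed by Bcl11b at 8.66, Ldb2 at 6.88 and Etv1 at 6.48. A lower group held Tle4 at 3.48, Foxp2 at 2.98 and Sox5 at 2.75 CPM per kb. Fezf2 at 1.76, Zfpm2 at 1.62 and Crym at 1.23 CPM per kb came last. No spread over libraries is known for these levels, so it cannot be said which neighbours in the order differ. The order depends on the length used: with the longest transcript in place of all exons, Etv1 moved to 13.1 and stood second to Tbr1 at 19.4. The median of the 10 was 3.23 CPM per kb and that of 13 upper-layer and callosal genes 1.38. Of these 13, 4 lay above every one of the 10, among them Unc5d (55.4) and Pou3f3 (30.4), 3 lay within their range, and 6 lay below them, among them Cux2 (0.608) and Rorb (0.286). The lists hold different genes, so their medians do not rank deep-layer against upper-layer neurons in these cells.

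**Figure D3:**
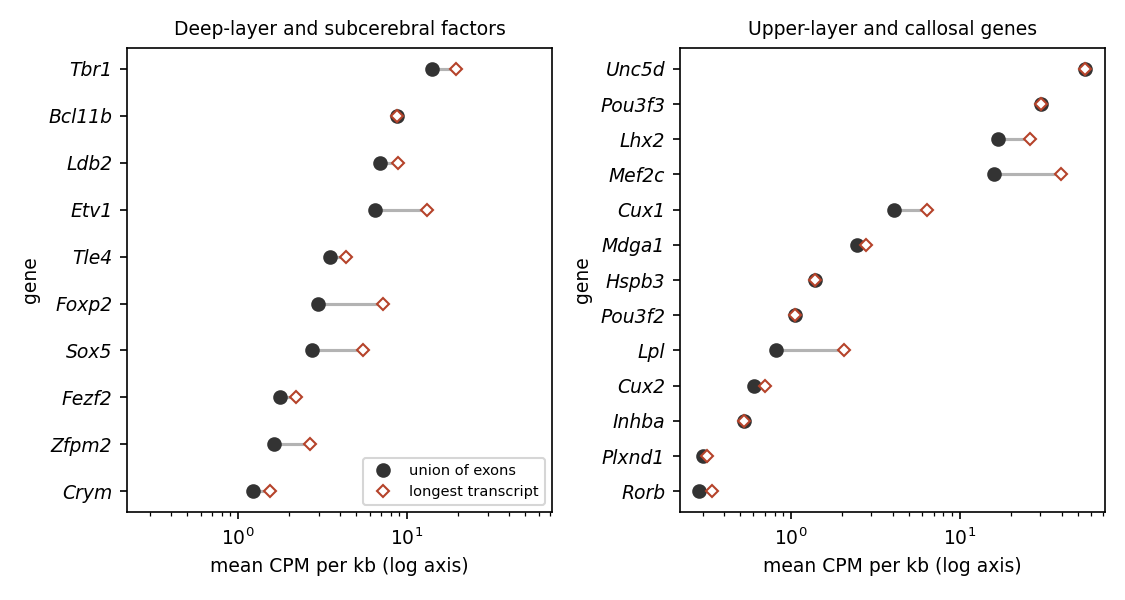
Mean level per kb (x axis, CPM per kb, log axis) of the 10 deep-layer and subcerebral genes (left) and of 13 upper-layer and callosal genes (right), by gene (y axis). Filled circles use the union of annotated exons and diamonds the longest transcript. Tbr1 is highest on the left at 14.1, and Unc5d on the right at 55.4.

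Other genes of the deep-layer programmes were taken from lists by role. Of 13 further layer V subcerebral genes none was called, 9 were negative and the median log2 fold change was -0.23. Cdh22, a cadherin, and Nefh, the heavy neurofilament subunit, had the smallest p, at -2.13 (p = 0.0325) and 1.95 (p = 0.0649) per the authors' deposited table, both at levels below the median of all genes. At or above that median, the 9 genes of this list ran from -0.48 to 0.78. Of 7 further layer VI genes none was called and 5 were negative, with a median of -0.22. Nfib, a nuclear factor I gene, had the smallest p there (-0.47, p = 0.111), and the synaptotagmin Syt6 stood at -0.55 per the authors' deposited table (p = 0.287).

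Subplate genes, which mark the earliest cortical neurons, numbered 8, none called and 5 negative, with a median of -0.27. For the 4 of them that reached the median level the list median was 0.67, so the sign of this list changed with level. The cadherin Cdh18 (-4.51, p = 0.0228) and the complexin Cplx3 (-3.01, p = 0.0524) had the smallest p per the authors' deposited table, both at a low mean log2 CPM of -0.70 and -1.73. The approximate intervals were wide, from -8.39 to -0.63 for Cdh18 and from -6.06 to 0.03 for Cplx3.

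Regulators that act on these programmes were also measured. Of 13, none was called and none had an unadjusted p under 0.05, while 9 were positive, with a median of 0.11. Nr2f1 (COUP-TFI), which restrains the corticospinal programme in sensory cortex, stood at 0.62 (p = 0.0699), and the LIM-only gene Lmo4 at 0.49 (p = 0.101), per the authors' deposited table. Of 13 upper-layer and callosal genes, of which Lhx2 is also among the regulators, none was called, 9 were positive and the median was 0.20. Pou3f3 (0.84, p = 0.0122), the lipase Lpl (1.26, p = 0.0123) and Mef2c (0.67, p = 0.0275) had an unadjusted p under 0.05 per the authors' deposited table, Mef2c being named after its value was seen. Over all genes, 611 of 21937 passed that p with a positive fold change, and 415 of the 10969 at or above the median level. The other 4 upper-layer genes were negative, among them Unc5d, the best expressed of the list, at -0.72 per the authors' deposited table (p = 0.121). Cux2 stood at 0.15 per the authors' deposited table (p = 0.809). The median of upper-layer genes was thus 0.20 and that of the 10 deep-layer genes -0.19. For the 10 upper-layer genes at or above the median level of all genes the median was 0.12, while all 10 deep-layer genes reached that level. The difference between these lists was not tested.

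**Figure D4:**
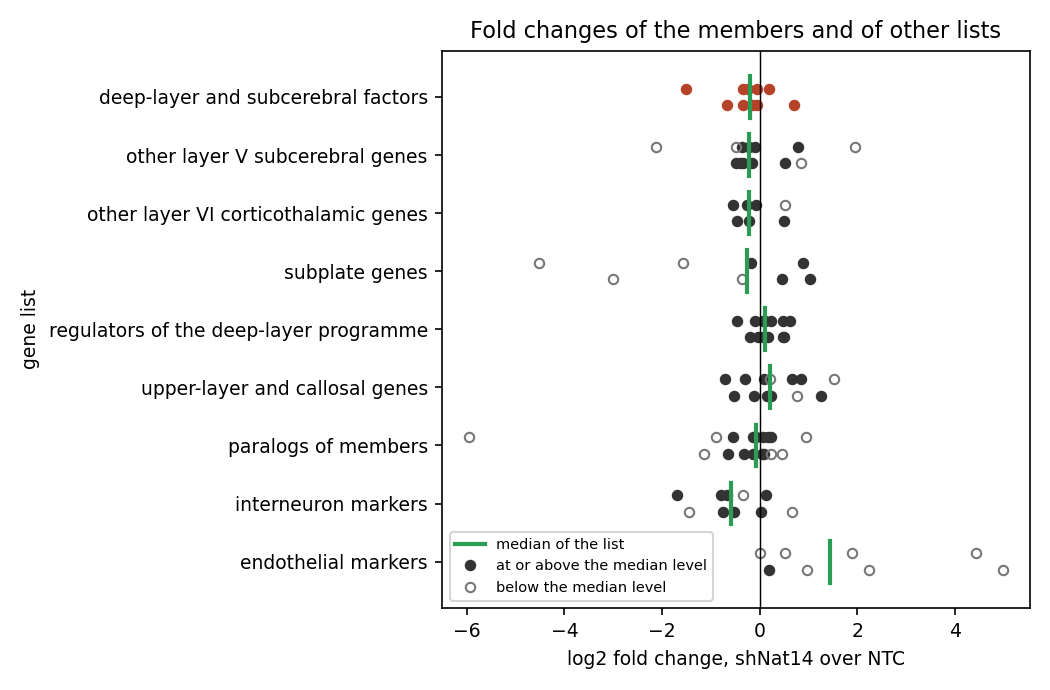
Log2 fold change (x axis, shNat14 over NTC) of each gene by list (y axis). Filled points are genes at or above the median level, open points lie below it, and green bars are list medians, -0.19 for the 10 deep-layer and subcerebral factors and 0.20 for upper-layer genes. Interneuron markers (median -0.60) and endothelial markers (median 1.43) are shown for comparison.

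Close relatives of the 10 genes were followed because reads can be shared between similar sequences. Of 17 paralogs none was called, 9 were negative, and the median log2 fold change was -0.08. Etv5 and Etv4, the relatives of Etv1, stood at -0.32 (p = 0.38) and -0.65 (p = 0.351) per the authors' deposited table, on the same side of 0 as Etv1. Ldb1, the relative of Ldb2, stood at -0.08 per the authors' deposited table (p = 0.834) and so did not share its positive value. For Bcl11b the relative Bcl11a stood at 0.07 (p = 0.801), and for Sox5 the relatives Sox6 and Sox13 at -0.14 (p = 0.658) and -1.15 (p = 0.267), per the authors' deposited table. The Groucho genes Tle1, Tle2, Tle3, Tle6 and Aes ran from -0.89 to 0.23 and the forkhead genes Foxp1, Foxp3 and Foxp4 from 0.04 to 0.46 per the authors' deposited table. Eomes, the T-box relative of Tbr1 in intermediate progenitors, stood at -0.54 (p = 0.144), and Zfpm1, at a low level, at 0.95 (p = 0.416) per the authors' deposited table. Fezf1, the relative of Fezf2, had the smallest p of the paralogs at -5.95 (p = 0.00344, adjusted p = 0.409) per the authors' deposited table, at a low level (mean log2 CPM -1.50) and with a wide interval from -9.93 to -1.96.

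Markers of other cell types were measured beside these genes. Astrocyte markers were negative in 9 of 9, with a median of -0.68 and Apoe (-1.10, p = 0.00021) and Aldh1l1 (-1.15, p = 0.00426) at the smallest p per the authors' deposited table. Microglial markers were negative in 8 of 9, with a median of -1.42, C1qb (-1.62, p = 0.00169) and C1qa (-1.42, p = 0.0103) leading per the authors' deposited table. Of these 9, 5 reached the median level of all genes, and their median was also -1.42. In the oligodendrocyte lineage 6 of 7 were negative (median -0.31), with Cnp at -1.08 (p = 0.0191) and the receptor Pdgfra at -0.47 (p = 0.183) per the authors' deposited table. Choroid plexus markers were positive in 6 of 8 (median 0.91), with Ttr at 1.80 (p = 0.065) and Kcnj13 at 1.16 (p = 0.199) per the authors' deposited table. Only 3 of these 8 reached the median level of all genes, with a median of 1.16. Pan-neuronal markers were negative in 5 of 9, with a median of -0.03. The 2 with the smallest p were positive, Gap43 at 0.78 (p = 0.0114) and Stmn2 at 0.45 (p = 0.0906) per the authors' deposited table. Medians were -0.11 for 9 radial glia markers, led by Slc1a3 (-0.35, p = 0.183) and Hes1 (0.46, p = 0.204), and -0.26 for 6 markers of intermediate progenitors, led by Eomes and Gadd45g (-0.23, p = 0.447), per the authors' deposited table. None of these markers was called, and their part in the values of the 10 genes was not tested.

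Striatal and Cajal-Retzius markers were examined because Bcl11b and Foxp2 are also striatal genes and Tbr1 is also expressed by Cajal-Retzius cells. Striatal markers had a median of -0.11 over 8 genes, none called. The dopamine receptors Drd2 (-4.96, p = 0.0574) and Drd1a (-4.55, p = 0.0834) had the smallest p per the authors' deposited table, at mean log2 CPM of -2.26 and -2.07, near the lowest level of the table (-3.09). Cajal-Retzius markers were positive in 4 of 8 (median 0.11), with Nhlh2 at 0.94 (p = 0.0694) and Reln at 1.05 (p = 0.12) per the authors' deposited table and none called. Calb2, the best expressed of the 8, stood at -1.05 (p = 0.13) per the authors' deposited table.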

How the data were processed

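RNA from sorted cortical cells was sequenced in 3 shNat14 and 3 NTC libraries, grouped by their titles. Per the file headers, the deposited table holds for each gene the authors' log2 fold change, its mean as log2 CPM, and its p-value before and after adjustment. DESeq, HTSeq 0.5.4p1, SAMtools 0.1.19, TopHat2 2.0.8 and the human build hg19 appear in the submitters' processing notes, without roles. The samples are mouse, and the column names are those of a different count package, so the build and the test behind the table are unresolved. No source used here gives the authors' filters, prior count or strand setting.

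From the deposited values a standard error was computed as the absolute log2 fold change over the two-sided normal deviate of the p-value. These intervals assume normality and take no account of shrinkage by a prior count. Genes were called at adjusted p under 0.05. Of 21937 genes, 4537 sat at the lowest mean level (log2 CPM -3.09). The median level was 1.71. Exon lengths came from GENCODE M21 and promoters from RefSeq, both on GRCm38, which may differ from the annotation the authors used.

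The members and lists were chosen with earlier results of these data known. The genes named are the 10 members, Nat14, the listed paralogs, and up to 2 genes with the smallest p in each other list. Beside these, Mef2c, Cux2, Unc5d, Rorb, Neurod6, Tubb3, Slc17a7, Cldn5, Calb2, Lhx2, Lmo1 and Lmo2 were named after their values were seen. Symbols in the lists that did not match the table were not analysed here, and 2 further genes of the lists are not reported here. Python 3.11.15, numpy 2.4.6, pandas 2.3.3, scipy 1.17.1 and matplotlib 3.10.9 were used.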

Additional observations from a re-analysis of the deposited data

How the results depend on the processing

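The number of the 10 genes called stayed at 0 under 6 alternatives: adjusted p under 0.10 or 0.01, Bonferroni correction, and adjustment over genes above the lowest level, at or above the median level or at 10 CPM or more. It was 2 at an unadjusted p under 0.05. The smallest adjusted p, that of Etv1, ran from 0.549 to 0.643 over the level filters that kept it. With a filter at a log2 CPM of 10, none of the 10 genes was left, so no value is given for them. Over all genes, 34 calls became 55 at adjusted p under 0.10, 19 at 0.01, 1105 at unadjusted p under 0.05 and 17 after Bonferroni correction. Adjustment over genes above the lowest level gave 43 calls. The stricter level filters gave 16 at or above the median level, 13 at 10 CPM or more and 0 of 94 genes at a log2 CPM of 10. Re-centring the fold changes on genes above the lowest level, on genes at or above the median level or on pan-neuronal markers shifted them by at most 0.032 and left 8 of 10 negative. Taking the longest transcript as length, an alternative added once the data had been seen, raised the level per kb of Sox5, Etv1, Foxp2 and Zfpm2 by over 1.5 times, to 5.46, 13.1, 7.2 and 2.66. No paired analysis was possible because library values are not part of the table, and for the same reason leaving out a replicate was not run. The depth of the libraries is unknown.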

Other observations

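Genes that act beside single members were measured as well. Crym binds thyroid hormone, and of 8 genes that carry, convert or sense this hormone none was called and none had an unadjusted p under 0.05, with a median log2 fold change of 0.02. The receptor Thra stood at -0.32 (p = 0.352) and the activating deiodinase Dio2 at 0.34 (p = 0.484) per the authors' deposited table, beside -1.50 for Crym. Ldb2 binds LIM-domain proteins, and of 7 such partners and associated proteins 5 were positive, with a median of 0.17 and none called. Lmo3, a LIM-only gene, had the smallest p at 0.61 (p = 0.0239, adjusted p = 0.844) and Lmo4 stood at 0.49 (p = 0.101) per the authors' deposited table, on the same side of 0 as Ldb2. The LIM-only genes Lmo1 (-0.46, p = 0.135) and Lmo2 (-0.70, p = 0.386) stood on the other side per the authors' deposited table. Lmo4 and Lhx2 of this list are also among the regulators above.

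Genes that guide corticospinal axons, the output of subcerebral neurons, were positive in 11 of 17, with a median log2 fold change of 0.17 and none called. The netrin receptor Dcc stood at -0.78 (p = 0.0365) and its ligand Ntn1 at -2.60 (p = 0.000402, adjusted p = 0.126) per the authors' deposited table, and these were the members of this list with an unadjusted p under 0.05. Ntn1 lay at a mean log2 CPM of 0.80, below the median level, and Dcc at 5.84.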
